A study of Mus musculus with 9 samples.

Results

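The transforming growth factor-beta (TGF-beta) and bone morphogenetic protein (BMP) signalling genes encode the ligands, receptors, SMAD proteins and secreted regulators of a large family of growth factors. They were chosen by symbol alone, as the genes in the count files named Bmp, Gdf, Tgfb or Smad with a number, Tgfbr, Bmpr, Inhb, Acvr, Chrd, Grem, Ltbp, Fst, Fstl or Nog, without the kinase gene Bmp2k. In all, 66 of the 24341 listed genes met this rule. By role they were 3 TGF-beta ligands, 4 activin subunits, 10 BMP ligands, 10 growth differentiation factor (GDF) ligands, 8 secreted antagonists, 4 latent TGF-beta binding proteins, 7 type I receptors, 4 type II receptors, 2 co-receptors, 8 Smads and 6 genes that share a symbol root but have another role (Bmp1, Fstl1, Fstl4, Fstl5, Tgfb1i1 and Tgfbrap1).

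Ligands of this family are secreted as dimers and bring together type II and type I receptors, which are serine/threonine kinases. The active type I receptor phosphorylates receptor-regulated SMADs, SMAD2 and SMAD3 for TGF-beta and activin and SMAD1, SMAD5 and SMAD9 for BMPs, which join SMAD4 and enter the nucleus, while SMAD6 and SMAD7 inhibit the cascade. Outside the cell, latent TGF-beta binding proteins hold TGF-beta in the matrix, and antagonists such as gremlin, noggin, chordin and follistatin bind BMPs or activins. In fibroblasts TGF-beta is best known for driving matrix and smooth muscle type contractile genes, and BMPs for driving the Id genes and programmes of bone and cartilage.

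Poly(A) RNA-Seq was performed in C57BL/6 mouse embryonic fibroblasts (MEFs), fibroblast cultures grown from embryos, with 3 WT, 3 Atm-/- and 3 Sirt6-/- samples, to see how gene expression differs in cells that lack ATM, a kinase of the DNA damage response, or SIRT6, a chromatin deacetylase. No treatment separates the samples. The labels name P53-/- and Atm-/-P53-/- mice beside wildtype and Sirt6-/- mice as sources of the cells without saying which source an Atm-/- sample had, and the methods describe an immortalized Atm-/-; p53-/- line and an immortalized Sirt6-/- line, obtained from different laboratories. Nothing states that replicates came from separate embryos or cultures, so p-values measure the spread between these samples, which may be technical, and genotype and cell line cannot be told apart.

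Each library held between 32187040 and 33837949 reads in genes, and a count of 3 reads, the limit that a count of 0 allows, came to 0.0887 to 0.0932 CPM (reads scaled to library size). Sirt6 had 4, 5 and 7 reads in Sirt6-/- MEFs against 487, 402 and 472 in WT. Atm reads were higher in the libraries labelled Atm-/- (3768, 3564 and 3443) than in WT (1536, 1617 and 1627), which does not check the label because a disrupted gene can still be transcribed, and where the Atm allele is disrupted is not given in the sources used here. Trp53, which encodes p53, had 806, 946 and 928 reads in these libraries against 7108, 7102 and 6563 in WT and 9081, 9127 and 9218 in Sirt6-/- MEFs. Low Trp53 reads and the Atm-/- label go together in the same 3 libraries, so differences linked to either cannot be told apart. The 3 libraries are called Atm-/- below by their label. WT replicate 2 stood apart: its counts differed from those of the other WT samples by a chi-square per gene of 14.4 and 15.6, against 5.11 to 6.66 in the other pairs of the same genotype. Without it, 43 of the signalling genes passed the test in Atm-/- against WT in place of 42, and 40 in Sirt6-/- against WT, as with it.

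Of 12 fibroblast marker genes, 1, Lum, had 0 reads in all Atm-/- samples and none had 0 reads in all WT or all Sirt6-/- samples. In Atm-/- against WT, 10 of 11 tested markers were lower (all genes 33.6% lower). In Sirt6-/- against WT 5 were higher and 6 lower (all genes 39.2% higher and 37.4% lower). Their summed level was 20417 to 23969 CPM in WT, 6404 to 6492 in Atm-/- and 18369 to 18827 in Sirt6-/- MEFs, with Col1a1 and Col1a2 a large part of it. Single markers moved apart from the sum. Thy1 was at 29.5, 18.9 and 24.9 CPM in WT, 82.9, 91.3 and 87.7 in Atm-/- and 0.0307, 1.02 and 0.36 in Sirt6-/- MEFs. Summed levels of 6 smooth muscle markers were 2811 to 3036 CPM in WT, 1000.2 to 1276 in Atm-/- and 1421 to 1781 in Sirt6-/- MEFs. A list of 8 cartilage and bone markers summed to 62.9 to 77.3 CPM in WT, 144 to 164 in Atm-/- and 301 to 351 in Sirt6-/- MEFs, with different genes behind each sum. Col2a1 was at 279, 244 and 297 CPM in Sirt6-/- and under 1 CPM in all other samples. Acan was at 61.9, 48.7 and 60.8 CPM in Atm-/- and at most 1.86 CPM in all other samples. Runx2 was at 56.9, 71.2 and 61.1 CPM in WT, 74.7, 73.0 and 79.3 in Atm-/- and 34.7, 34.1 and 31.7 in Sirt6-/- MEFs. A neural list of 6 genes summed to 7.70 to 8.91, 277 to 286 and 270.5 to 293 CPM, most of it from Nes and Map2. Of its genes, 4 of 5 tested were higher in Atm-/- against WT (all genes 34.7%) and 3 of 3 in Sirt6-/- against WT (all genes 39.2%). Sox2 was at 0.439, 0.511 and 0.19 CPM in WT, 18.4, 22.3 and 16.1 in Atm-/- and 0, 0.185 and 0 in Sirt6-/- MEFs. Tubb3 was at 1.98, 1.76 and 1.87 CPM in WT, 9.49, 13.1 and 9.01 in Atm-/- and 29.4, 29.8 and 28.7 in Sirt6-/- MEFs. Sox10 and Gfap were under 1 CPM in every sample. Epithelial markers (8 genes) summed to 25.4 to 29.4, 90.7 to 97.9 and 22.1 to 26.0 CPM. Endothelial markers (8 genes) summed to at most 13.04 CPM, blood markers to at most 16.2 and skeletal muscle markers to at most 1.59. The part of these shifts in the levels given below was not tested.

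The promoters of 4 signalling genes whose RNA levels differed strongly between genotypes are shown first, because 2 of these genes were higher in a knockout and 2 lower. Each is the 250 bases before the gene start in RefSeq GRCm38.p6, the assembly also known as mm10, written 5′ to 3′ on the gene's own strand. Capitals mark the half-site CAGAC bound by SMAD3 and SMAD4, the GC-rich SMAD site GGCGCC and the TATA box TATAAA, searched on both strands. Grem1 (chr2:113758649-113758898, minus strand) was higher in both knockouts, Gdf10 (chr14:33923337-33923586, plus strand) was higher in Atm-/- MEFs, and Inhbb (chr1:119422249-119422498, minus strand) and Chrd (chr16:20732877-20733126, plus strand) were lower in both.
Grem1: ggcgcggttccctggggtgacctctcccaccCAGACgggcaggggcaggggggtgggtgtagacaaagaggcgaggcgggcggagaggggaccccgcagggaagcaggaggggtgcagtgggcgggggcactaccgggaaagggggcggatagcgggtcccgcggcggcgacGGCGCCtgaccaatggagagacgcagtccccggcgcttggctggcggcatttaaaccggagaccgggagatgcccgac
Gdf10: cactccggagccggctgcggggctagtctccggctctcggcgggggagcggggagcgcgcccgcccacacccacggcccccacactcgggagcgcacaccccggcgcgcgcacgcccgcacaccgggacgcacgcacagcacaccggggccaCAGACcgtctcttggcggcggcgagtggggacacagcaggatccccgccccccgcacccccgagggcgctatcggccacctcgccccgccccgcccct
Inhbb: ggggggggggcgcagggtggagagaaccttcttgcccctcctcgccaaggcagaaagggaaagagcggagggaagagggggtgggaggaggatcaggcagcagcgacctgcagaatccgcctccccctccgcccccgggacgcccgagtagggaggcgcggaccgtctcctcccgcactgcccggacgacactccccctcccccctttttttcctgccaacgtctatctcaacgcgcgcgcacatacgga
Chrd: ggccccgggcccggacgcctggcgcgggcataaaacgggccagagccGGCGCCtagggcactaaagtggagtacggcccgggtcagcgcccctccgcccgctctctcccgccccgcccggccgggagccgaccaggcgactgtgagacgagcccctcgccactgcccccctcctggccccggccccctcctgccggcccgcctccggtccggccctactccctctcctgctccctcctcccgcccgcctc
None of these 4 stretches overlapped an annotated exon. Grem1 held 1 CAGAC and 1 GGCGCC, Gdf10 held 1 CAGAC, Chrd held 1 GGCGCC, and Inhbb held none of the motifs. All were rich in CpG dinucleotides, with 24 in Grem1, 35 in Gdf10, 21 in Inhbb and 28 in Chrd, against a median of 6 over the 32851 promoter stretches of the same length in the table. Over 59 stretches of 46 signalling genes with an entry, CAGAC was present in 49.2% (42.2% of all stretches), GGCGCC in 18.6% (9.59%) and TATAAA in 13.6% (12.4%). A match of letters is a description and not a site shown to be bound.

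Of the 66 genes, 43 passed the low-count filter in all 3 comparisons, 4 in only some of them and 19 in none. These counts include genes that passed only because 1 genotype was high. For such genes, a p-value adds no support beyond the reads themselves. Among them were Bmp2, Gdf10, Fstl3 and Bmp8a, and Chrdl1 and Tgfbr3l in the comparisons with WT. The same holds for Gdf6 and Inhbb in each comparison with Sirt6-/- MEFs. In Atm-/- against WT MEFs, 42 of 47 tested genes passed an adjusted p of 0.05 (edgeR quasi-likelihood test, Benjamini-Hochberg over all genes), 18 higher and 24 lower, where 68.4% of all 13283 tested genes passed, 34.7% higher and 33.6% lower. In Sirt6-/- against WT MEFs, 40 of 44 passed, 20 higher and 20 lower, where 76.6% of all 13206 tested genes passed, 39.2% higher and 37.4% lower. At a change of at least 2-fold the count was 20 of 47 in Atm-/- MEFs, 10 higher and 10 lower (all genes 22.5%, 12.6% higher and 9.85% lower). In Sirt6-/- MEFs it was 23 of 44, 13 higher and 10 lower (all genes 29.3%, 17.5% higher and 11.8% lower). The median log2 fold change was -0.37 in Atm-/- and 0.06 in Sirt6-/- MEFs, against 0.02 over all tested genes in both. The 2 comparisons share the WT samples. In bulk RNA, fewer cells of a type and less RNA per cell cannot be told apart.

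**Figure D1:**
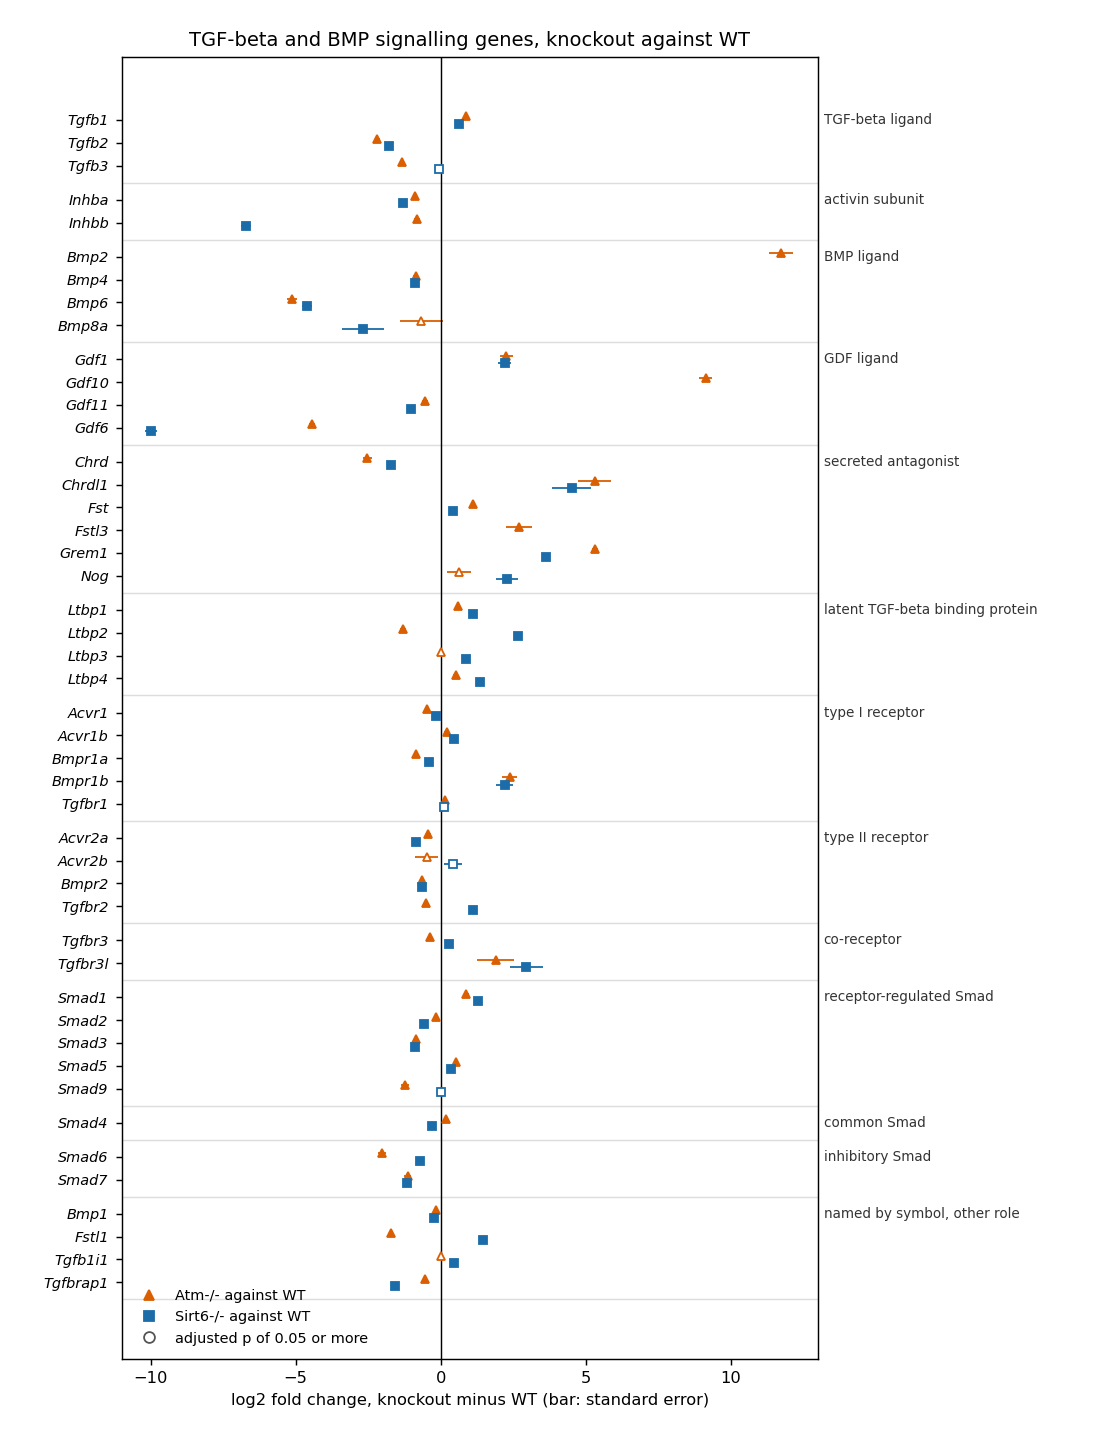
Log2 fold change (x axis, knockout minus WT, bars are standard errors) of each tested signalling gene reported here (y axis, grouped by role) in Atm-/- (triangles) and Sirt6-/- MEFs (squares), with open symbols where the adjusted p was 0.05 or more. Gdf6, Bmp6 and Tgfb2 lie to the left in both genotypes, Grem1 and Chrdl1 to the right in both, and Ltbp2, Fstl1 and Tgfbr2 on opposite sides, while the position of Bmp2 depends on the prior count because WT had 0 reads.

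Per-length levels, as RPKM (reads scaled to gene length and library size), ranked the genes differently in each genotype. In WT, Fstl1, a secreted glycoprotein, was the highest at 234 ± 5.85 RPKM (SD, n = 3). Next by mean were Bmp4 at 52.9 ± 8.03, Ltbp1 at 43.6 ± 6.62, Tgfb3 at 43.4 ± 2.57 and Inhba at 41.4 ± 2.45. Samples of these genes overlapped, so their order is not settled. Grem1 led in Atm-/- MEFs at 159 ± 13.97 RPKM, ahead of Fstl1 at 80.3 ± 1.602 and Ltbp1 at 73.8 ± 2.11. In Sirt6-/- MEFs Fstl1 was again first at 689.6 ± 12.5 RPKM, followed by Ltbp1 at 101 ± 3.54. Ltbp2 at 77.8 ± 2.27 and Tgfbr2 at 74.2 ± 1.404 came next, with overlapping samples. A mean of at least 1 RPKM was reached by 36 genes in WT, 40 in Atm-/- and 35 in Sirt6-/- MEFs.

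The 3 TGF-beta genes, whose products share the type II receptor TGFBR2, moved apart. Tgfb1, the main form in most tissues, was measured at 28.5, 25.6 and 24.5 CPM in WT, 47.5, 50.5 and 46.8 in Atm-/- and 37.1, 43.2 and 43.03 in Sirt6-/- MEFs, normalized with the trimmed mean of M-values (TMM) and listed by replicate from 1 to 3 here and below. All Atm-/- and Sirt6-/- samples were above all WT samples, with a log2 fold change of 0.87 ± 0.07 (SE, adjusted p = 1.0e-07) in Atm-/- and 0.65 ± 0.08 (SE, adjusted p = 5.4e-06) in Sirt6-/- against WT. Tgfb2, at chr1:186622792-186705989, fell in both genotypes, from 64.1, 53.4 and 64.3 CPM in WT to 14.2, 12.4 and 13.4 in Atm-/- and 17.2, 19.2 and 16.1 in Sirt6-/- MEFs, without overlap. Its log2 fold change was -2.19 ± 0.09 (SE, adjusted p = 2.5e-11) in Atm-/- and -1.79 ± 0.09 (SE, adjusted p = 1.4e-10) in Sirt6-/- MEFs. Tgfb3 was measured at 165, 147 and 156 CPM in WT, 64.7, 64.5 and 59.6 in Atm-/- and 159, 133 and 157 in Sirt6-/- MEFs. All Atm-/- samples were below all WT samples, with a log2 fold change of -1.32 ± 0.06 (SE, adjusted p = 5.3e-11), while Sirt6-/- samples overlapped with WT (-0.06 ± 0.07 (SE, adjusted p = 0.42)). As shares of the summed RPKM of the 3 genes, Tgfb1 made up 17.5% ± 0.987 in WT, 51.9% ± 1.08 in Atm-/- and 29.2% ± 3.16 in Sirt6-/- MEFs (SD, n = 3), and the sums were 67.3 ± 4.28, 46.7 ± 1.67 and 67.6 ± 3.13 RPKM. The RPKM sums here and below are scaled to library totals without TMM, so differences in sums between genotypes carry that scaling.

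Activins are dimers of inhibin beta subunits and signal through SMAD2 and SMAD3. Inhba, the beta A subunit, was measured at 71.03, 67.4 and 62.8 CPM in WT, 36.8, 36.8 and 36.8 in Atm-/- and 27.5, 28.5 and 25.4 in Sirt6-/- MEFs. It was lowest in Sirt6-/- MEFs, and both genotypes lay below WT, with log2 fold changes of -0.87 ± 0.06 (SE, adjusted p = 1.6e-08) in Atm-/- and -1.30 ± 0.07 (SE, adjusted p = 3.5e-10) in Sirt6-/- MEFs. Inhbb, the beta B subunit, at chr1:119415465-119422248, was measured at 29.1, 27.6 and 31.2 CPM in WT, 17.7, 14.6 and 17.9 in Atm-/- and 0.184, 0.402 and 0.24 in Sirt6-/- MEFs. Its level in Atm-/- MEFs was moderately below WT, with a log2 fold change of -0.81 ± 0.10 (SE, adjusted p = 3.0e-06), whereas in Sirt6-/- MEFs each sample was under 1 CPM, with a log2 fold change of -6.72 ± 0.18 (SE, adjusted p = 1.2e-13). In Sirt6-/- against WT, Inhbb passed the low-count filter only through the WT samples, so that p-value adds no support beyond the reads. Inhbc and Inhbe had 2 reads in all each.

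Of the BMP ligands, Bmp4 and Bmp6 fell in both genotypes and Bmp2 was found in Atm-/- MEFs. Bmp4, a ligand of early mesoderm and bone, was measured at 121, 92.4 and 122 CPM in WT, 59.6, 66.7 and 59.5 in Atm-/- and 64.2, 53.4 and 65.2 in Sirt6-/- MEFs. WT samples were the highest, with log2 fold changes of -0.86 ± 0.09 (SE, adjusted p = 9.3e-07) and -0.87 ± 0.10 (SE, adjusted p = 1.3e-06) in Atm-/- and Sirt6-/- MEFs, and WT replicate 2 was the lowest of them. Bmp6, known as a signal for hepcidin in iron balance, at chr13:38345107-38500302, fell from 25.96, 20.8 and 27.3 CPM in WT to 0.836, 0.713 and 0.591 in Atm-/- and 1.23, 1.02 and 0.78 in Sirt6-/- MEFs, with log2 fold changes of -5.11 ± 0.17 (SE, adjusted p = 3.1e-12) and -4.61 ± 0.17 (SE, adjusted p = 4.7e-12). All knockout samples were near 1 CPM, below every WT sample. Bmp2, an osteogenic ligand, at chr2:133552159-133562885, had 0, 0 and 0 reads in WT, 438, 424 and 462 in Atm-/- and 0, 2 and 0 in Sirt6-/- MEFs. Against the limit that 0 reads allow in each WT library, 3 reads, Bmp2 was at least 135-fold higher in Atm-/- than in WT MEFs (adjusted p = 6.3e-11). It passed the low-count filter only through the Atm-/- samples, so the p-value adds no support beyond the reads. Bmp8a had few reads, at 11, 12 and 16 reads in WT, 21, 6 and 0 in Atm-/- and 2, 0 and 4 in Sirt6-/- MEFs, with a log2 fold change of -0.66 ± 0.74 (SE, adjusted p = 0.44) in Atm-/- and -2.68 ± 0.73 (SE, adjusted p = 0.0041) in Sirt6-/- MEFs, and it shares sequence with its near-identical copy Bmp8b.

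Among the GDF ligands, Gdf6 and Gdf10 differed most. Gdf6, a ligand of joints and the skeleton, at chr4:9844372-9862345, was measured at 142, 106 and 132 CPM in WT, 5.94, 5.19 and 6.56 in Atm-/- and 0.0614, 0.0927 and 0.21 in Sirt6-/- MEFs. Gdf6 was thus above 100 CPM in WT, under 10 CPM in Atm-/- and at 2, 3 and 7 reads in Sirt6-/- MEFs, and no groups overlapped. The log2 fold change against WT was -4.43 ± 0.12 (SE, adjusted p = 2.0e-13) in Atm-/- and -9.97 ± 0.20 (SE, adjusted p = 4.7e-15) in Sirt6-/- MEFs. In the latter comparison Gdf6 passed the filter only through the WT samples, so the p-value adds no support beyond the reads. Gdf10, also called BMP3B, at chr14:33923587-33937983, was measured at 0.0627, 0.128 and 0.0635 CPM in WT, 46.1, 59.4 and 44.5 in Atm-/- and 0.0307, 0 and 0 in Sirt6-/- MEFs. Only the Atm-/- samples were above 1 CPM, with a log2 fold change of 9.14 ± 0.23 (SE, adjusted p = 1.2e-13) against WT, and Gdf10 did not pass the filter in Sirt6-/- against WT. It was thus tested against WT only through the Atm-/- samples, and the p-value adds no support beyond the reads. Gdf11, a ligand of axial patterning, was measured at 16.1, 16.5 and 13.9 CPM in WT, 10.6, 11.8 and 9.95 in Atm-/- and 7.21, 7.54 and 8.28 in Sirt6-/- MEFs. It was lower than in WT in both, with log2 fold changes of -0.53 ± 0.11 (SE, adjusted p = 7.6e-04) in Atm-/- and -1.01 ± 0.12 (SE, adjusted p = 1.8e-06) in Sirt6-/- MEFs. Gdf1, a ligand of left-right patterning, was listed at 0.941, 1.79 and 1.65 CPM in WT, 5.999, 6.65 and 8.59 in Atm-/- and 6.93, 6.55 and 6.897 in Sirt6-/- MEFs. Gdf1 had log2 fold changes of 2.27 ± 0.24 (SE, adjusted p = 8.6e-07) and 2.22 ± 0.22 (SE, adjusted p = 4.0e-07). All of the exons of Gdf1 lie within Cers1 on the same strand, so reads of Gdf1 cannot be told apart from reads of Cers1, a ceramide synthase.

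**Figure D2:**
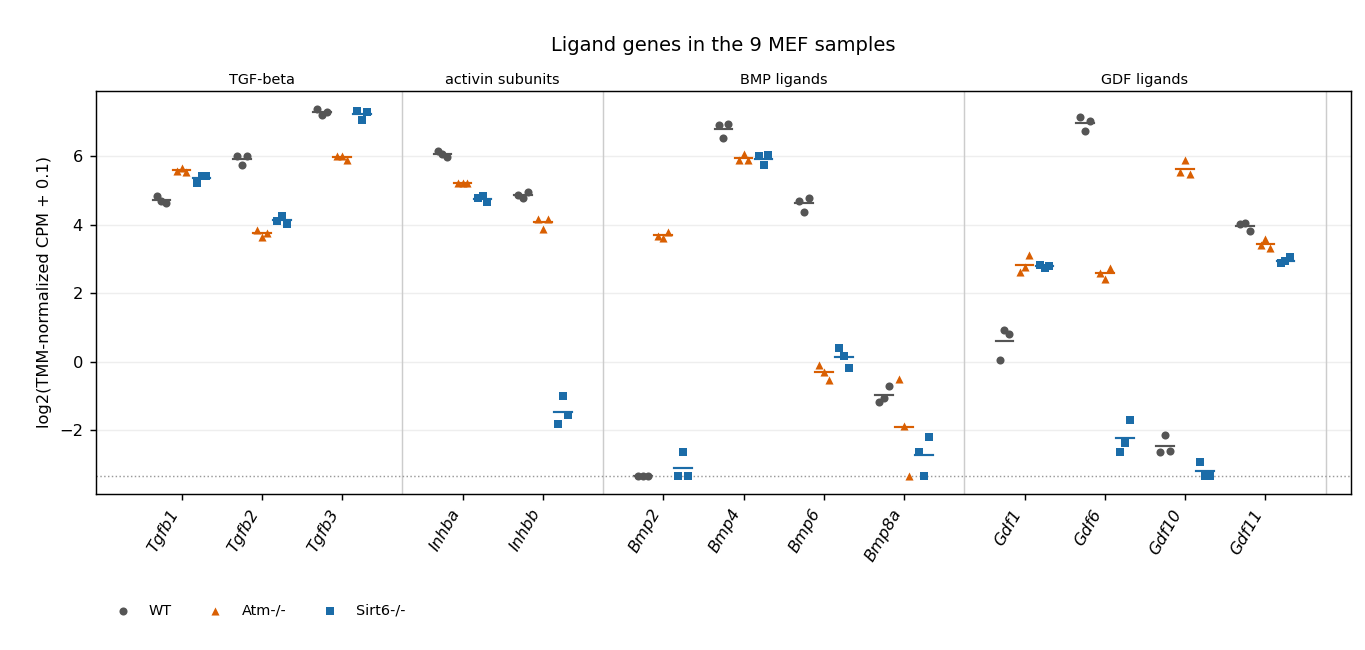
Level of each tested ligand gene in every sample, as log2 of TMM-normalized CPM plus 0.1 (y axis), for WT (circles), Atm-/- (triangles) and Sirt6-/- (squares) MEFs, with a short line at the mean of the log2 values of each genotype and a dotted line at 0 CPM. Gdf6 and Inhbb fall furthest in Sirt6-/- MEFs, while Bmp2 and Gdf10 stand above 10 CPM only in Atm-/- MEFs.

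Summed over the BMP and GDF ligands, the level was 105 ± 13.7 RPKM in WT, 69.4 ± 5.79 in Atm-/- and 38.2 ± 3.51 in Sirt6-/- MEFs (SD, n = 3). Bmp4 made up 50.1% ± 1.47 of that sum in WT, 47.0% ± 0.756 in Atm-/- and 80.1% ± 1.38 in Sirt6-/- MEFs. Gdf6 held 32.1% ± 0.977 in WT and 2.55% ± 0.469 in Atm-/- MEFs, where Gdf10 held 30.0% ± 2.38.

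Of the secreted antagonists reported here, only Chrd was lower than in WT, in both knockouts, and each other call against WT was higher. Grem1, gremlin, which binds BMP2 and BMP4, at chr2:113746164-113758646, was measured at 7.18, 6.62 and 4.82 CPM in WT, 224, 264 and 259 in Atm-/- and 71.4, 79.5 and 78.8 in Sirt6-/- MEFs. It was above WT in both genotypes and highest in Atm-/- MEFs, with log2 fold changes of 5.32 ± 0.11 (SE, adjusted p = 1.9e-14) and 3.62 ± 0.11 (SE, adjusted p = 4.5e-13).

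Chrdl1, chordin-like 1, was at 0.0627, 0.0639 and 0 CPM in WT, 2.05, 1.48 and 1.98 in Atm-/- and 0.798, 1.45 and 0.9 in Sirt6-/- MEFs. Chrdl1 had log2 fold changes of 5.31 ± 0.56 (SE, adjusted p = 9.8e-07) and 4.51 ± 0.66 (SE, adjusted p = 2.2e-05) from a near absence in WT. It passed the low-count filter against WT only through the knockout samples, so these p-values add no support beyond the reads. Chordin itself moved the other way. Chrd, at chr16:20733127-20742384, was measured at 23.2, 16.7 and 21.8 CPM in WT, 3.69, 2.83 and 4.22 in Atm-/- and 6.32, 5.56 and 6.93 in Sirt6-/- MEFs. All knockout samples were below all WT samples, with log2 fold changes of -2.53 ± 0.16 (SE, adjusted p = 4.3e-09) in Atm-/- and -1.71 ± 0.14 (SE, adjusted p = 3.5e-08) in Sirt6-/- MEFs. Nog, noggin, was measured at 0.564, 0.607 and 0.317 CPM in WT, 0.923, 0.542 and 0.856 in Atm-/- and 3.53, 1.79 and 2.04 in Sirt6-/- MEFs. Nog was higher than WT in Sirt6-/- MEFs, with a log2 fold change of 2.30 ± 0.38 (SE, adjusted p = 7.2e-05), while in Atm-/- MEFs the log2 fold change was 0.63 ± 0.42 (SE, adjusted p = 0.197) and the samples overlapped with WT. Follistatin, Fst, which binds activin, was measured at 42.8, 52.97 and 44.7 CPM in WT, 100.4, 104 and 101 in Atm-/- and 57.2, 72.9 and 60.7 in Sirt6-/- MEFs. It was highest in Atm-/- MEFs, with a log2 fold change of 1.11 ± 0.07 (SE, adjusted p = 4.0e-09) against WT, and above WT in Sirt6-/- MEFs, with a log2 fold change of 0.44 ± 0.09 (SE, adjusted p = 6.2e-04). Fstl3, a follistatin relative that also binds activin, was measured at 0.125, 0.32 and 0.444 CPM in WT, 1.64, 1.43 and 2.78 in Atm-/- and 0.0307, 0.0927 and 0.15 in Sirt6-/- MEFs. Fstl3 had a log2 fold change of 2.70 ± 0.45 (SE, adjusted p = 8.6e-05) in Atm-/- MEFs, and 47.3% of its exon bases overlap Prss57 on the opposite strand. Whether reads were counted by strand is not given in the sources used here. Chrdl2 had 19 reads in all, each in an Atm-/- sample.

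**Figure D3:**
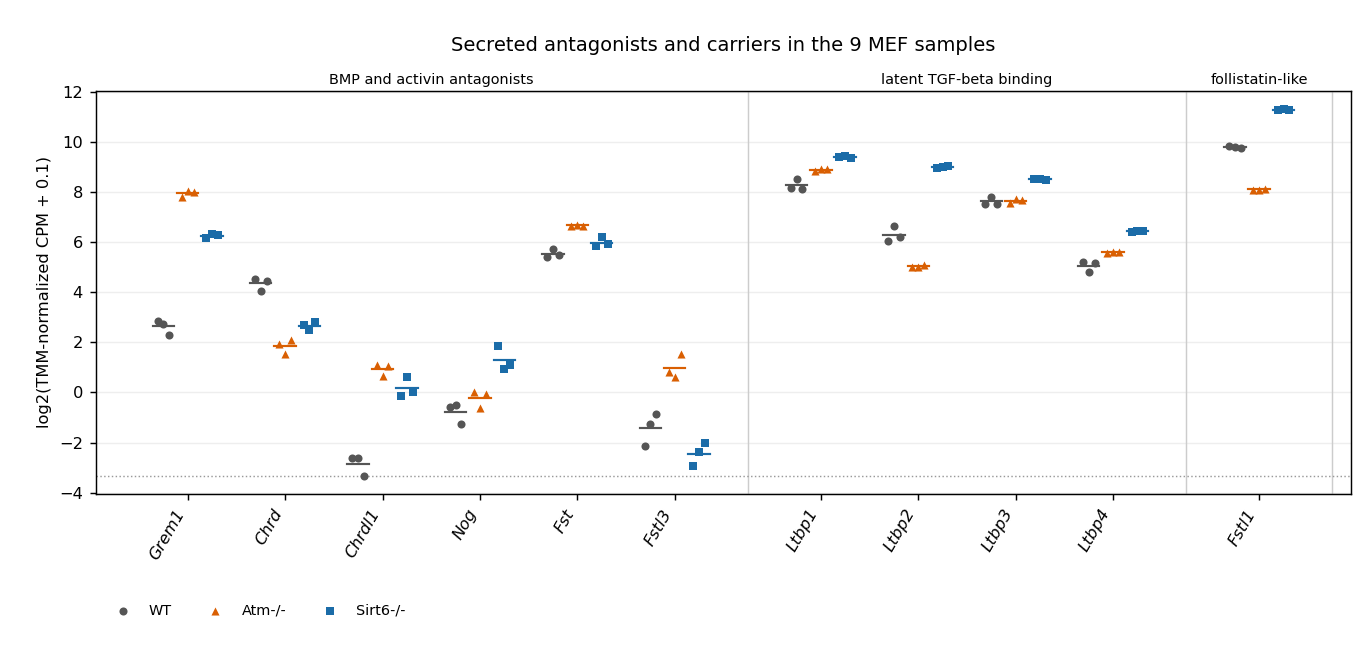
Level of secreted antagonists, latent TGF-beta binding proteins and Fstl1 in every sample, as log2 of TMM-normalized CPM plus 0.1 (y axis), for WT (circles), Atm-/- (triangles) and Sirt6-/- (squares) MEFs, with a short line at each genotype's mean of the log2 values. Grem1 is highest in Atm-/- MEFs, and Ltbp2 and Fstl1 are highest in Sirt6-/- and lowest in Atm-/- MEFs.

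Latent TGF-beta binding proteins anchor the latent complex to fibrillin and fibronectin in the matrix. All 4 genes were higher in Sirt6-/- than in WT MEFs (all genes 39.2% higher). In Atm-/- MEFs 2 were higher, 1 lower and 1 did not pass the test (all genes 34.7% higher and 33.6% lower). Ltbp2, at chr12:84783212-84876532, a binding protein of elastic fibres that does not itself carry latent TGF-beta, was measured at 65.6, 101 and 74.2 CPM in WT, 32.2, 31.9 and 34.3 in Atm-/- and 493, 518 and 527 in Sirt6-/- MEFs. The 3 genotypes did not overlap, and the log2 fold change was -1.30 ± 0.12 (SE, adjusted p = 2.0e-07) in Atm-/- and 2.68 ± 0.11 (SE, adjusted p = 1.6e-11) in Sirt6-/- MEFs, with WT replicate 2 the highest WT sample. Ltbp1 was measured at 289.9, 369 and 282 CPM in WT, 460.2, 487 and 480.4 in Atm-/- and 686, 698 and 657 in Sirt6-/- MEFs. Ltbp1 had fold changes of 0.60 ± 0.08 (SE, adjusted p = 9.2e-06) and 1.12 ± 0.08 (SE, adjusted p = 7.5e-09) on the log2 scale. Ltbp4 followed the same order at lower levels, 36.6, 27.97 and 36.3 CPM in WT, 47.9, 48.97 and 48.6 in Atm-/- and 85.00, 87.8 and 87.02 in Sirt6-/- MEFs. Ltbp4 had log2 fold changes of 0.52 ± 0.09 (SE, adjusted p = 1.3e-04) and 1.37 ± 0.09 (SE, adjusted p = 1.8e-09). Ltbp3 was measured at 185, 224 and 187 CPM in WT, 190.0, 212 and 205 in Atm-/- and 369, 369 and 363 in Sirt6-/- MEFs. The Ltbp3 log2 fold change was 0.02 ± 0.07 (SE, adjusted p = 0.79) in Atm-/- and 0.89 ± 0.06 (SE, adjusted p = 8.5e-09) in Sirt6-/- MEFs. Without WT replicate 2, the highest WT sample, Ltbp3 passed the test in Atm-/- MEFs at 0.12 (adjusted p = 0.0490). The summed level was 97.3 ± 12.1 RPKM in WT, 130 ± 4.51 in Atm-/- and 266 ± 3.95 in Sirt6-/- MEFs (SD, n = 3).

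For TGF-beta and activins, type II receptors bind ligand first. Tgfbr2, the receptor of the TGF-beta forms, at chr9:116084293-116175360, was measured at 173, 145 and 166 CPM in WT, 112, 114 and 116 in Atm-/- and 341, 356 and 350.4 in Sirt6-/- MEFs. It was above every WT sample in Sirt6-/- and below every WT sample in Atm-/- MEFs, with log2 fold changes of 1.12 ± 0.06 (SE, adjusted p = 2.5e-10) and -0.51 ± 0.06 (SE, adjusted p = 3.2e-06). Bmpr2, the BMP receptor, was measured at 169, 172 and 166 CPM in WT, 118, 100.4 and 104 in Atm-/- and 113, 107 and 108 in Sirt6-/- MEFs. Bmpr2 was lower in both, with log2 fold changes of -0.66 ± 0.06 (SE, adjusted p = 1.6e-07) in Atm-/- and -0.63 ± 0.05 (SE, adjusted p = 1.1e-08) in Sirt6-/- MEFs. Acvr2a, an activin receptor, fell in both, from 41.05, 35.6 and 41.3 CPM in WT to 29.7, 30.5 and 28.3 in Atm-/- and 23.5, 21.2 and 21.6 in Sirt6-/- MEFs. Its log2 fold changes were -0.42 ± 0.08 (SE, adjusted p = 2.2e-04) and -0.83 ± 0.08 (SE, adjusted p = 2.9e-07), and 7.84% of its exon bases overlap Orc4 on the opposite strand. Acvr2b was near 1 CPM, at 1.003, 0.959 and 0.857 CPM in WT, 0.433, 1.06 and 0.532 in Atm-/- and 1.196, 1.11 and 1.47 in Sirt6-/- MEFs, and passed the test in neither comparison with WT (-0.48 ± 0.40 (SE, adjusted p = 0.299) and 0.42 ± 0.32 (SE, adjusted p = 0.24)). Tgfbr2 made up 59.99% ± 1.79 of the summed type II RPKM in WT, 61.2% ± 1.58 in Atm-/- and 83.6% ± 0.784 in Sirt6-/- MEFs, and the sum was 53.7 ± 3.25, 41.5 ± 0.455 and 88.7 ± 0.885 RPKM.

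Of 5 tested type I receptors, 3 were higher and 2 lower in Atm-/- MEFs (all genes 34.7% higher and 33.6% lower), and 2 were higher and 2 lower in Sirt6-/- MEFs (all genes 39.2% and 37.4%). Tgfbr1, the partner of Tgfbr2, was measured at 53.8, 52.5 and 55.3 CPM in WT, 59.9, 62.1 and 58.3 in Atm-/- and 55.8, 60.9 and 57.9 in Sirt6-/- MEFs, a range of 52.5 to 62.1 CPM over the 9 samples. Its log2 fold change was 0.15 ± 0.06 (SE, adjusted p = 0.031) in Atm-/- MEFs, a call lost without WT replicate 1, WT replicate 2 or Atm-/- replicate 2 (0.13 to 0.15, adjusted p = 0.0603 to 0.0896), and 0.11 ± 0.06 (SE, adjusted p = 0.099) in Sirt6-/- MEFs, where it passed when counts were scaled by library totals in place of TMM (0.20, adjusted p = 0.0067). Bmpr1a, a BMP receptor, was measured at 225, 217 and 247 CPM in WT, 139, 126 and 124 in Atm-/- and 181, 178 and 163 in Sirt6-/- MEFs and fell in both, with log2 fold changes of -0.83 ± 0.06 (SE, adjusted p = 1.2e-08) in Atm-/- and -0.40 ± 0.06 (SE, adjusted p = 1.7e-05) in Sirt6-/- MEFs. Bmpr1b, a BMP and GDF receptor of cartilage, was the one type I receptor with a change over 2-fold, from 1.25, 0.895 and 0.54 CPM in WT to 4.64, 4.68 and 4.78 in Atm-/- and 4.05, 4.26 and 4.11 in Sirt6-/- MEFs, with log2 fold changes of 2.38 ± 0.27 (SE, adjusted p = 1.9e-06) and 2.20 ± 0.28 (SE, adjusted p = 5.0e-06). Acvr1, also called ALK2, was measured at 62.1, 60.1 and 57.1 CPM in WT, 46.2, 41.3 and 41.8 in Atm-/- and 57.2, 49.7 and 53.1 in Sirt6-/- MEFs. The Acvr1 log2 fold change was -0.48 ± 0.07 (SE, adjusted p = 1.5e-05) in Atm-/- and -0.16 ± 0.07 (SE, adjusted p = 0.036) in Sirt6-/- MEFs, where samples overlapped with WT and the call was lost without WT replicate 1, Sirt6-/- replicate 2 or Sirt6-/- replicate 3 (adjusted p = 0.0824 to 0.169). Acvr1b, an activin receptor, was measured at 18.9, 20.5 and 19.6 CPM in WT, 21.7, 22.6 and 24.4 in Atm-/- and 26.01, 28.6 and 26.1 in Sirt6-/- MEFs. The Acvr1b log2 fold changes were 0.21 ± 0.08 (SE, adjusted p = 0.038) in Atm-/- and 0.45 ± 0.08 (SE, adjusted p = 1.4e-04) in Sirt6-/- MEFs. The call of Acvr1b in Atm-/- MEFs was lost without WT replicate 1, WT replicate 3, Atm-/- replicate 2 or Atm-/- replicate 3 (adjusted p = 0.0599 to 0.134). Acvr1c had 4 reads in all and Acvrl1, an endothelial receptor, at most 12 in a library.

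Co-receptors present ligand to the signalling receptors. Tgfbr3, betaglycan, which presents TGF-beta2, was measured at 175, 154 and 174 CPM in WT, 126, 137 and 128 in Atm-/- and 202, 202 and 206 in Sirt6-/- MEFs. Tgfbr3 was lower in Atm-/- MEFs, with a log2 fold change of -0.37 ± 0.06 (SE, adjusted p = 4.6e-05), and higher in Sirt6-/- MEFs, with a log2 fold change of 0.28 ± 0.05 (SE, adjusted p = 2.6e-04). Tgfbr3l was under 1 CPM in all samples, at 0.0314, 0.0959 and 0.19 CPM in WT, 0.288, 0.457 and 0.472 in Atm-/- and 0.828, 0.711 and 0.99 in Sirt6-/- MEFs. The Tgfbr3l log2 fold changes were 1.90 ± 0.63 (SE, adjusted p = 0.016) in Atm-/- and 2.95 ± 0.56 (SE, adjusted p = 2.4e-04) in Sirt6-/- MEFs, and 52.2% of its exon bases are shared with Gm49320 on the same strand, so the 2 cannot be told apart. Its call in Atm-/- MEFs was lost without WT replicate 1, Atm-/- replicate 2 or Atm-/- replicate 3 (adjusted p = 0.0502 to 0.0768). Tgfbr3l passed the low-count filter against WT only through the knockout samples, so these p-values add no support beyond the reads.

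The Smads summed to 103 ± 7.80 RPKM in WT, 92.6 ± 1.37 in Atm-/- and 90.3 ± 1.95 in Sirt6-/- MEFs (SD, n = 3), and the members shifted in both directions. Smad3, which carries TGF-beta and activin signals, was measured at 110.0, 112 and 102 CPM in WT, 57.7, 64.5 and 57.97 in Atm-/- and 55.8, 59.6 and 60.2 in Sirt6-/- MEFs. Smad3 was below WT in both, with log2 fold changes of -0.85 ± 0.06 (SE, adjusted p = 1.2e-08) and -0.88 ± 0.06 (SE, adjusted p = 2.6e-09). Smad2, its partner, was measured at 83.9, 89.9 and 90.5 CPM in WT, 84.5, 77.2 and 78.02 in Atm-/- and 61.8, 60.9 and 55.2 in Sirt6-/- MEFs. The Smad2 log2 fold change was -0.15 ± 0.06 (SE, adjusted p = 0.031) in Atm-/- MEFs, and -0.57 ± 0.06 (SE, adjusted p = 7.1e-07) in Sirt6-/- MEFs. In Atm-/- MEFs the samples overlapped with WT, the call was lost without WT replicate 2, WT replicate 3, Atm-/- replicate 2 or Atm-/- replicate 3 (adjusted p = 0.0520 to 0.134), and the direction turned with library totals (0.016). On the BMP side, Smad1 was measured at 16.7, 19.4 and 20.4 CPM in WT, 33.8, 35.96 and 34.8 in Atm-/- and 44.6, 48.7 and 45.9 in Sirt6-/- MEFs and was higher in both, with log2 fold changes of 0.88 ± 0.09 (SE, adjusted p = 4.2e-07) and 1.30 ± 0.08 (SE, adjusted p = 2.4e-09). Smad5 was also higher in both, at 0.53 ± 0.05 in Atm-/- and 0.35 ± 0.06 in Sirt6-/- MEFs on the log2 scale (adjusted p = 6.8e-07 and 5.7e-05), with 73.8, 68.9 and 76.8 CPM in WT, 106, 107 and 105 in Atm-/- and 95.8, 92.9 and 90.1 in Sirt6-/- MEFs. Smad9, the third BMP SMAD, was measured at 23.9, 33.4 and 20.95 CPM in WT, 10.8, 10.99 and 11.7 in Atm-/- and 28.1, 26.8 and 23.4 in Sirt6-/- MEFs. It was lower than WT in Atm-/- MEFs, with a log2 fold change of -1.23 ± 0.14 (SE, adjusted p = 2.7e-06), and had a log2 fold change of 0.00 ± 0.14 (SE, adjusted p = 0.99) in Sirt6-/- MEFs.

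Smad4, the common partner, was measured at 76.1, 78.5 and 87.99 CPM in WT, 92.4, 93.01 and 91.2 in Atm-/- and 66.7, 67.6 and 64.1 in Sirt6-/- MEFs. The log2 fold change was 0.18 ± 0.06 (SE, adjusted p = 0.013) in Atm-/- and -0.29 ± 0.06 (SE, adjusted p = 7.1e-04) in Sirt6-/- MEFs, and the first call was lost without WT replicate 1 (0.14, adjusted p = 0.0632). Both inhibitory Smads fell in both genotypes. Smad6, at chr9:63953076-64022059, which inhibits BMP signals in particular, was measured at 53.4, 79.6 and 58.6 CPM in WT, 13.5, 16.3 and 17.5 in Atm-/- and 36.7, 39.6 and 41.7 in Sirt6-/- MEFs. It was lowest in Atm-/- MEFs, with log2 fold changes of -2.03 ± 0.13 (SE, adjusted p = 5.1e-09) in Atm-/- and -0.70 ± 0.12 (SE, adjusted p = 6.6e-05) in Sirt6-/- MEFs. Smad7, which inhibits TGF-beta signals by promoting receptor degradation, was measured at 38.7, 56.5 and 41.6 CPM in WT, 20.1, 20.3 and 22.4 in Atm-/- and 22.2, 20.7 and 18.7 in Sirt6-/- MEFs. The Smad7 log2 fold changes were -1.13 ± 0.12 (SE, adjusted p = 9.2e-07) in Atm-/- and -1.15 ± 0.12 (SE, adjusted p = 6.8e-07) in Sirt6-/- MEFs. WT replicate 2 was the highest WT sample for both genes, and both stayed below every WT sample in all knockout samples.

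**Figure D4:**
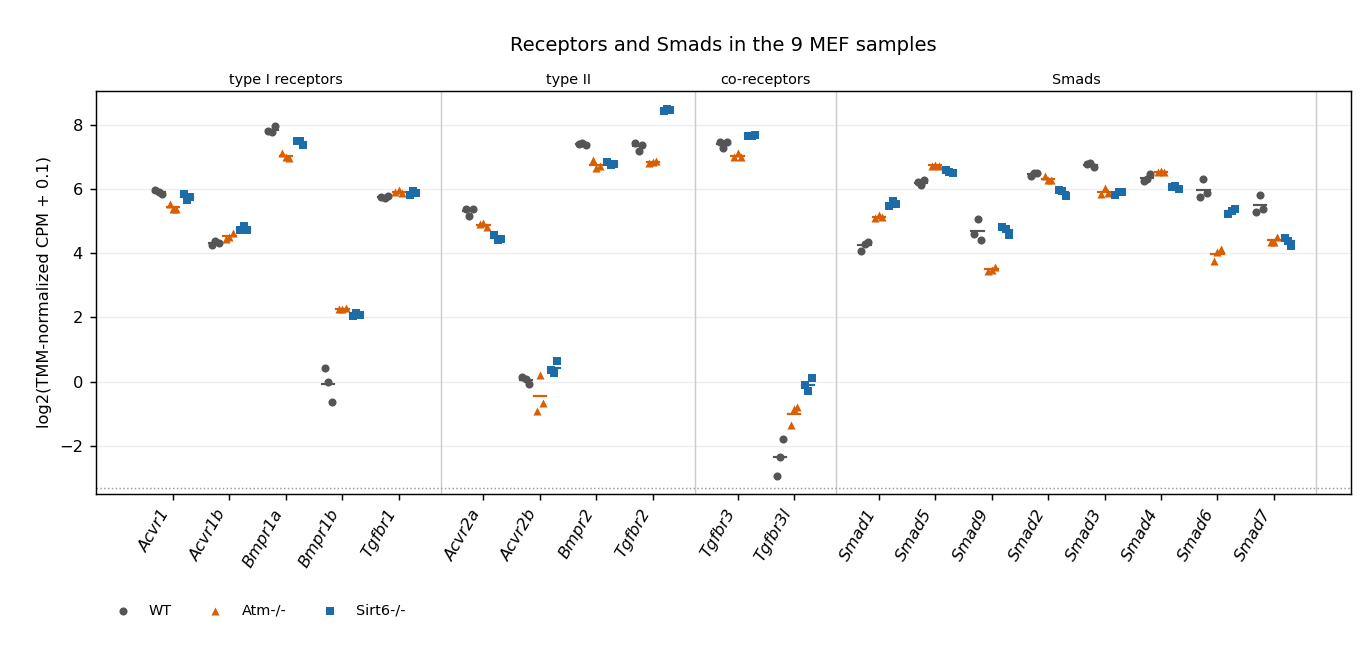
Level of receptors, co-receptors and Smads in every sample, as log2 of TMM-normalized CPM plus 0.1 (y axis), for WT (circles), Atm-/- (triangles) and Sirt6-/- (squares) MEFs, with a short line at each genotype's mean of the log2 values. Tgfbr2 separates the genotypes in the order Sirt6-/-, WT, Atm-/-, and Smad6 in the order WT, Sirt6-/-, Atm-/-.

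Of the genes with another role, Fstl1 showed the widest split. Fstl1, at chr16:37776873-37836514, was measured at 922, 890.4 and 876 CPM in WT, 275, 271 and 283 in Atm-/- and 2457, 2532 and 2461 in Sirt6-/- MEFs. Fstl1 was lower in Atm-/-, with a log2 fold change of -1.71 ± 0.04 (SE, adjusted p = 1.2e-13), and higher in Sirt6-/-, with a log2 fold change of 1.47 ± 0.04 (SE, adjusted p = 2.0e-13). Tgfbrap1, which binds TGF-beta receptors, was measured at 54.8, 57.8 and 55.6 CPM in WT, 40.8, 34.6 and 39.9 in Atm-/- and 20.7, 19.8 and 16.2 in Sirt6-/- MEFs. Tgfbrap1 was lower in both, with log2 fold changes of -0.55 ± 0.07 (SE, adjusted p = 8.2e-06) and -1.57 ± 0.09 (SE, adjusted p = 4.1e-10). Bmp1, a procollagen proteinase that also cleaves chordin, was measured at 132, 145 and 138 CPM in WT, 119, 125 and 126 in Atm-/- and 118, 118 and 116 in Sirt6-/- MEFs. The Bmp1 log2 fold changes were -0.17 ± 0.05 (SE, adjusted p = 0.0071) in Atm-/- and -0.23 ± 0.05 (SE, adjusted p = 5.7e-04) in Sirt6-/- MEFs. The call of Bmp1 in Atm-/- MEFs was lost without Atm-/- replicate 1 (-0.14, adjusted p = 0.0523) and with library totals (adjusted p = 0.883). Tgfb1i1, the focal adhesion adaptor Hic-5, was measured at 82.6, 82.7 and 84.2 CPM in WT, 79.4, 82.9 and 87.9 in Atm-/- and 116, 111 and 118 in Sirt6-/- MEFs. The Tgfb1i1 log2 fold change was -0.00 ± 0.05 (SE, adjusted p = 0.96) in Atm-/- and 0.47 ± 0.05 (SE, adjusted p = 6.6e-07) in Sirt6-/- MEFs, and with library totals Tgfb1i1 was higher in Atm-/- MEFs (0.16, adjusted p = 0.0156).

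The other low genes are given by their summed reads over the 3 samples of each genotype, in the order WT, Atm-/- and Sirt6-/-. Bmp7 had 4, 55 and 0 reads, Gdf7 2, 38 and 0, Gdf5 7, 33 and 7, Gdf15 11, 28 and 25, and Bmp3 5, 26 and 0. Acvrl1 had 8, 16 and 5 reads, Chrdl2 0, 19 and 0, Gdf9 12, 4 and 8, and Bmp15 0, 0 and 14. Bmp5 had 2, 5 and 0, Bmp8b 0, 2 and 3, Acvr1c 0, 4 and 0, Fstl4 0, 2 and 0, Inhbc 0, 0 and 2, and Inhbe 2, 0 and 0. Bmp10, Fstl5, Gdf2 and Gdf3 had 0 reads in every sample. The highest count in any sample among these 19 genes was 23 reads, and none was tested. Bmp7, Gdf7 and Bmp3 had most of their reads in Atm-/- samples.

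The direct comparison of Atm-/- with Sirt6-/- MEFs shows which genes differ between the 2 knockouts. In it, 37 of 46 tested genes passed the test, 17 higher in Atm-/- and 20 lower, where 75.8% of all genes passed, 38.0% higher and 37.8% lower. At 2-fold or more the count was 16 of 46, 8 higher and 8 lower (all genes 25.5%, 11.3% higher and 14.2% lower). The median log2 fold change was 0.03, against 0.00 over all genes.

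Higher in Atm-/- than in Sirt6-/- MEFs were the ligands Gdf10, Bmp2, Inhbb and Gdf6 and the antagonists Fstl3 and Grem1, and Tgfbrap1. Gdf10 had 5186 reads in Atm-/- against 1 in Sirt6-/- MEFs, a ratio of 4923 (95% exact interval 883 to 194474, which covers counting error only), and Bmp2 had 1324 against 2, a ratio of 628 (174 to 5194). Inhbb differed by 5.92 ± 0.21 (SE, adjusted p = 6.3e-16) and Gdf6 by 5.56 ± 0.33 (SE, adjusted p = 3.2e-12) on the log2 scale. Grem1 differed by 1.71 ± 0.06 (SE, adjusted p = 2.2e-16), Fstl3 by 4.36 ± 0.51 (SE, adjusted p = 1.5e-07) and Tgfbrap1 by 1.03 ± 0.09 (SE, adjusted p = 1.7e-09). Inhbb, Gdf6 and Fstl3 passed the low-count filter here only through the Atm-/- samples, so their p-values add no support beyond the reads. Lower in Atm-/- MEFs were the matrix and carrier genes Ltbp2, with a log2 difference of -3.96 ± 0.05 (SE, adjusted p = 4.8e-24), and Fstl1, with a log2 difference of -3.16 ± 0.03 (SE, adjusted p = 2.1e-24), and Tgfbr2, with a log2 difference of -1.61 ± 0.04 (SE, adjusted p = 9.4e-19). Smad6 differed by -1.31 ± 0.09 (SE, adjusted p = 2.5e-11), Tgfb3 by -1.24 ± 0.06 (SE, adjusted p = 1.3e-13), Smad9 by -1.22 ± 0.09 (SE, adjusted p = 2.0e-10), Nog by -1.65 ± 0.34 (SE, adjusted p = 1.7e-04) and Acvr2b by -0.89 ± 0.38 (SE, adjusted p = 0.042). The call of Acvr2b was lost without Atm-/- replicate 1 or 3 or any one Sirt6-/- replicate (adjusted p = 0.0521 to 0.168). Bmp4, Bmp6, Bmpr2, Smad3 and Smad7, lower than WT in both, did not pass the test here (log2 differences 0.03 ± 0.07, -0.49 ± 0.37, -0.02 ± 0.06, 0.04 ± 0.06 and 0.04 ± 0.09). The Atm-/- libraries are the ones in which Atm reads were not reduced, and that label was not checked by these values.

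The other genes of the pathway were counted from lists drawn up by role. Here too, some genes passed the low-count filter against WT only through the higher genotype of the pair. For these a p-value adds no support beyond the reads. Among them were Tll1, Dlx5, Hey1, Bambi, Itgb6, Amhr2, Pcsk5, Lefty1 and Sost. Of 18 tested TGF-beta target genes, 4 were higher and 12 lower in Atm-/- against WT MEFs (median log2 fold change -0.72), and 10 were higher and 8 lower in Sirt6-/- against WT (median 0.34). Over all tested genes, 68.4% passed in Atm-/- MEFs (34.7% higher and 33.6% lower) and 76.6% in Sirt6-/- MEFs (39.2% higher and 37.4% lower). Several targets are also markers, with Col1a1 and Col1a2 in the fibroblast list and Acta2 and Tagln in the smooth muscle list. They hold a large part of those summed levels, so the lower sums in the same samples are not a separate observation. The part of the shared genes was not tested. Tgfbi, a matrix protein named for its induction by TGF-beta, was measured at 6.15, 5.402 and 4.95 CPM in WT, 45.7, 55.1 and 41.7 in Atm-/- and 203, 236 and 231 in Sirt6-/- MEFs. Tgfbi was higher in both, with log2 fold changes of 3.10 ± 0.12 (SE, adjusted p = 1.3e-11) and 5.34 ± 0.09 (SE, adjusted p = 4.6e-16). Snai2, a transcription factor of the mesenchymal state, rose, with log2 fold changes of 1.65 ± 0.10 and 2.69 ± 0.09, and so did the matricellular Postn, with 0.92 ± 0.15 and 2.25 ± 0.19. Col1a1, the type I collagen chain, fell to 1529, 1373 and 1513 CPM in Atm-/- and 2371, 2308 and 2451 in Sirt6-/- from 9059.6, 7462 and 9474 in WT, with log2 fold changes of -2.57 ± 0.07 (SE, adjusted p = 5.9e-13) and -1.87 ± 0.07 (SE, adjusted p = 5.2e-12). Col1a2, its partner chain, was at 5053, 4096 and 5039.9 CPM in WT, 898, 892 and 859.6 in Atm-/- and 7838, 7543 and 8027 in Sirt6-/- MEFs. Col1a2 was below WT in Atm-/-, with a log2 fold change of -2.43 ± 0.07 (SE, adjusted p = 3.8e-13), and above WT in Sirt6-/-, with a log2 fold change of 0.72 ± 0.07 (SE, adjusted p = 1.4e-07). Ctgf, a growth factor cofactor, and Tagln, a smooth muscle protein, fell in both, and so did the repressor gene Bhlhe40. Their log2 fold changes in Atm-/- and Sirt6-/- MEFs were -0.40 ± 0.09 and -2.51 ± 0.06 for Ctgf, -1.88 ± 0.08 and -2.05 ± 0.06 for Tagln, and -1.94 ± 0.05 and -2.20 ± 0.05 for Bhlhe40.

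Of 9 BMP target genes tested in Atm-/- against WT MEFs, 5 were higher and 1 lower (median 0.29), and in Sirt6-/- against WT 4 were higher and 5 lower (median -0.36), where 68.4% and 76.6% of all genes passed. Without Sirt6-/- replicate 3, 3 were lower in Sirt6-/- MEFs. Without WT replicate 2, 9 were higher and 1 lower in Atm-/- MEFs. These are more than the 9 genes tested with all samples, because each fit applies the low-count filter anew. With library totals 8 were higher and 1 lower. Id1, the canonical BMP target, was measured at 214, 282 and 198 CPM in WT, 152, 181 and 157 in Atm-/- and 83.7, 85.6 and 88.6 in Sirt6-/- MEFs. Id1 was below WT in both, with log2 fold changes of -0.51 ± 0.10 (SE, adjusted p = 5.2e-04) in Atm-/- and -1.43 ± 0.10 (SE, adjusted p = 5.6e-09) in Sirt6-/- MEFs. Id4, of the same family, was measured at 0.815, 1.02 and 1.52 CPM in WT, 4.18, 4.45 and 5.46 in Atm-/- and 0.521, 0.587 and 0.42 in Sirt6-/- MEFs. Id4 was higher in Atm-/-, with a log2 fold change of 2.06 ± 0.25 (SE, adjusted p = 4.9e-06), and lower in Sirt6-/-, with a log2 fold change of -1.13 ± 0.40 (SE, adjusted p = 0.018). Hey1, also a Notch target, and Atoh8, a helix-loop-helix factor, were higher in both, with log2 fold changes of 2.30 ± 0.40 and 2.45 ± 0.46 for Hey1 and 0.87 ± 0.12 and 1.37 ± 0.10 for Atoh8. Msx1, a homeobox gene, was measured at 7.401, 9.05 and 8.35 CPM in WT, 8.88, 12.6 and 9.04 in Atm-/- and 1.104, 2.101 and 2.099 in Sirt6-/- MEFs. Msx1 was lower in Sirt6-/- MEFs, with a log2 fold change of -2.22 ± 0.22 (SE, adjusted p = 3.5e-07), and the value in Atm-/- MEFs was 0.29 ± 0.15 (SE, adjusted p = 0.101). Dlx5, an osteogenic homeobox gene, was measured at 0, 0.192 and 0.381 CPM in WT, 0.0577, 0.114 and 0 in Atm-/- and 1.87, 2.29 and 1.65 in Sirt6-/- MEFs. Dlx5 was higher in Sirt6-/- MEFs, with a log2 fold change of 3.32 ± 0.56 (SE, adjusted p = 7.9e-05), and was not tested in Atm-/- MEFs. It passed the low-count filter only through the Sirt6-/- samples, so the p-value adds no support beyond the reads.

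**Figure D5:**
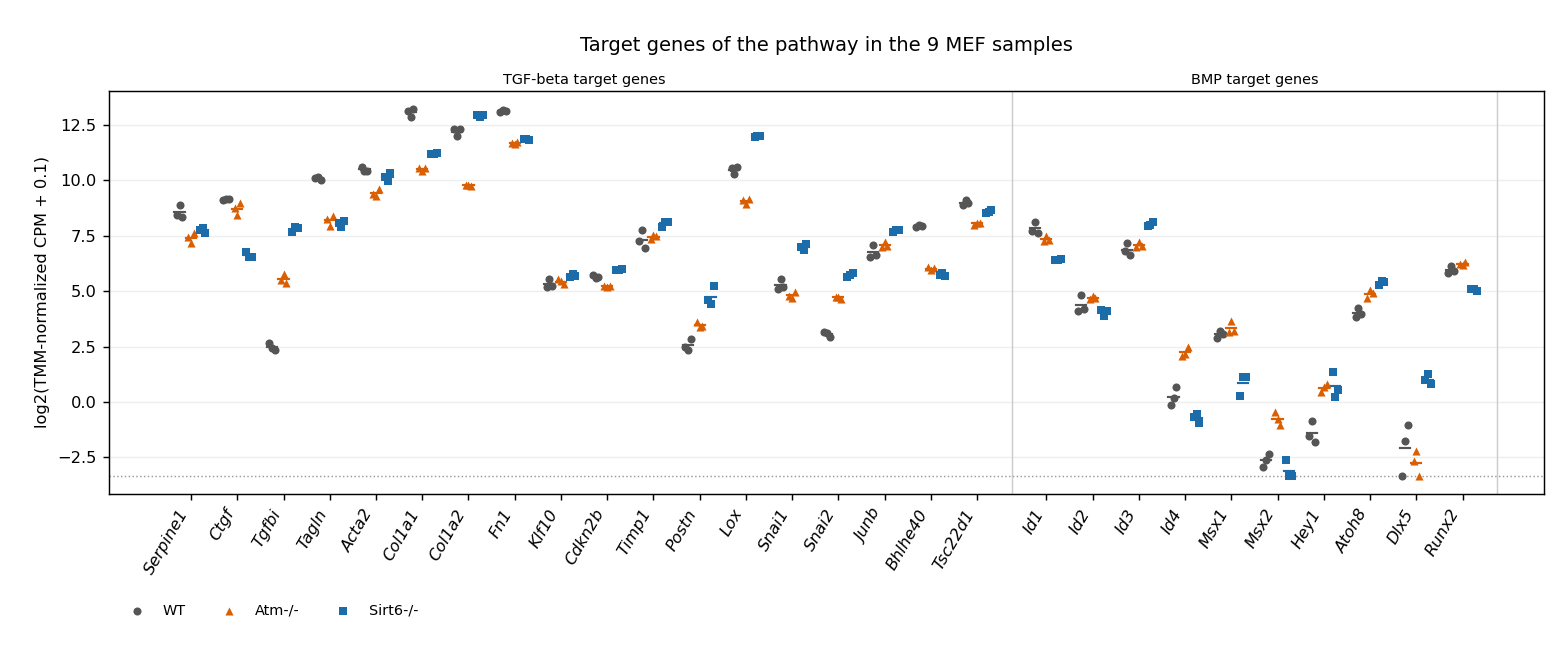
Level of TGF-beta and BMP target genes that were tested in at least 1 comparison, in every sample, as log2 of TMM-normalized CPM plus 0.1 (y axis), for WT (circles), Atm-/- (triangles) and Sirt6-/- (squares) MEFs, with a short line at each genotype's mean of the log2 values. Tgfbi and Snai2 are above WT in both knockouts, Bhlhe40 and Tagln below WT in both, and Col1a2 lies on opposite sides of WT.

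Of other ligands, receptors and co-receptors, 2 were higher and 1 lower of 7 tested in Atm-/- (median 0.25), and 3 higher and 1 lower of 6 in Sirt6-/- MEFs (median 0.68), where 68.4% and 76.6% of all genes passed. Without WT replicate 2, WT replicate 3 or Atm-/- replicate 1, 1 was higher in Atm-/- MEFs. Lefty1, a nodal antagonist, had 0 reads in each WT sample and was at least 26.7-fold higher in Atm-/- MEFs against 3 reads per WT library. Amhr2, the receptor of anti-Müllerian hormone, was measured at 1.13, 0.991 and 1.14 CPM in WT, 0.231, 0.2 and 0.0295 in Atm-/- and 0.184, 0 and 0.03 in Sirt6-/- MEFs. Amhr2 was lower in both, with log2 fold changes of -2.80 ± 0.51 (SE, adjusted p = 2.2e-04) and -3.86 ± 0.65 (SE, adjusted p = 7.7e-05). Rgma, a BMP co-receptor, was measured at 3.79, 4.25 and 5.46 CPM in WT, 5.68, 5.19 and 4.99 in Atm-/- and 38.6, 35.7 and 40.8 in Sirt6-/- MEFs, and Inha, the inhibin alpha subunit, at 1.35, 0.863 and 1.43 CPM in WT, 1.82, 1.51 and 2.24 in Atm-/- and 3.31, 2.904 and 3.12 in Sirt6-/- MEFs. Both were higher in Sirt6-/- MEFs, with log2 fold changes of 3.09 ± 0.12 (SE, adjusted p = 7.2e-12) and 1.36 ± 0.26 (SE, adjusted p = 2.9e-04), and gave 0.23 ± 0.17 and 0.60 ± 0.31 without passing the test in Atm-/- MEFs.

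Of 20 tested extracellular regulators, 7 were higher and 9 lower in Atm-/- (median -0.30) and 10 higher and 7 lower in Sirt6-/- MEFs (median 0.55). All tested genes gave 34.7% higher and 33.6% lower in Atm-/- and 39.2% and 37.4% in Sirt6-/- MEFs. Lrrc32, or GARP, which holds latent TGF-beta on the cell surface, was measured at 1.57, 2.88 and 2.57 CPM in WT, 26.8, 26.2 and 24.1 in Atm-/- and 97.6, 114 and 107 in Sirt6-/- MEFs. Lrrc32 was higher in both, with log2 fold changes of 3.45 ± 0.16 (SE, adjusted p = 1.1e-10) and 5.51 ± 0.13 (SE, adjusted p = 3.0e-14). Tll1, a proteinase that cleaves chordin, was measured at 0.188, 0.0639 and 0 CPM in WT, 6.52, 4.54 and 5.37 in Atm-/- and 6.53, 3.61 and 6.63 in Sirt6-/- MEFs. Tll1 was higher in both, with log2 fold changes of 5.95 ± 0.44 and 5.99 ± 0.49 (adjusted p = 2.0e-08 and 4.1e-08). It passed the low-count filter only through the knockout samples, so these p-values add no support beyond the reads. Bmper, a secreted BMP regulator, was measured at 411, 396 and 417 CPM in WT, 142, 139 and 144 in Atm-/- and 12.8, 15.7 and 12.4 in Sirt6-/- MEFs. Bmper was lower in both, with log2 fold changes of -1.54 ± 0.04 (SE, adjusted p = 4.4e-13) and -4.91 ± 0.08 (SE, adjusted p = 3.6e-16). Pcsk6, a proprotein convertase, was measured at 5.96, 8.02 and 6.13 CPM in WT, 49.95, 61.2 and 51.6 in Atm-/- and 0.89, 0.556 and 0.42 in Sirt6-/- MEFs. Pcsk6 was higher in Atm-/-, with a log2 fold change of 3.01 ± 0.12 (SE, adjusted p = 1.4e-11), and lower in Sirt6-/-, with a log2 fold change of -3.42 ± 0.27 (SE, adjusted p = 2.5e-08), and Pcsk5, of the same family, fell in both, with log2 fold changes of -4.10 ± 0.45 and -4.98 ± 0.63. Furin, also a convertase and named after its values were seen, was higher in both, with log2 fold changes of 0.31 ± 0.06 (SE, adjusted p = 2.9e-04) and 0.70 ± 0.06 (SE, adjusted p = 2.8e-08). Dcn, decorin, a TGF-beta binding proteoglycan, and Fbn2, fibrillin-2, were lower in Atm-/- MEFs, with log2 fold changes of -2.47 ± 0.11 and -2.43 ± 0.09, while Dcn was higher in Sirt6-/- MEFs, with a log2 fold change of 0.45 ± 0.11, and Fbn2 gave -0.13 ± 0.07 without passing. Itgb6, an integrin that activates TGF-beta, was measured at 0.282, 0.607 and 0.508 CPM in WT, 0.0577, 0.2 and 0.0591 in Atm-/- and 2.55, 2.87 and 1.77 in Sirt6-/- MEFs. Itgb6 was higher in Sirt6-/- MEFs, with a log2 fold change of 2.36 ± 0.36 (SE, adjusted p = 3.6e-05). Sost, sclerostin, was at 0 reads in WT and at least 12.3-fold higher in Atm-/- MEFs against 3 reads per WT library.

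Of 27 tested intracellular regulators, 8 were higher and 11 lower in Atm-/- (median -0.06) and 7 higher and 14 lower in Sirt6-/- MEFs (median -0.16), where 68.4% and 76.6% of all genes passed. With library totals these counts were 12 higher and 7 lower in Atm-/- and 8 higher and 9 lower in Sirt6-/- MEFs. Tgif2, a SMAD corepressor, was measured at 3.199, 2.05 and 2.32 CPM in WT, 40.3, 39.8 and 38.8 in Atm-/- and 23.5, 22.2 and 21.7 in Sirt6-/- MEFs. Tgif2 was higher in both, with log2 fold changes of 3.96 ± 0.13 (SE, adjusted p = 1.9e-12) and 3.15 ± 0.15 (SE, adjusted p = 5.9e-11). Bambi, a decoy receptor, was measured at 0.0627, 0.384 and 0.127 CPM in WT, 2.51, 2.37 and 2.13 in Atm-/- and 1.104, 0.927 and 0.99 in Sirt6-/- MEFs. Bambi was higher in both, with log2 fold changes of 3.58 ± 0.45 (SE, adjusted p = 6.3e-06) and 2.38 ± 0.53 (SE, adjusted p = 8.8e-04). Smurf1, a ubiquitin ligase of SMADs, rose in Atm-/- MEFs, with a log2 fold change of 0.65 ± 0.06, and gave -0.06 ± 0.07 without passing in Sirt6-/- MEFs. Dab2, an adaptor, Crebbp, a coactivator, and Skil, a corepressor, fell in Atm-/- MEFs, with log2 fold changes of -1.38 ± 0.05, -0.88 ± 0.07 and -0.62 ± 0.09. Ldlrad4, which inhibits TGF-beta signals, and Tgif1, a corepressor, were higher in Sirt6-/- MEFs, with log2 fold changes of 1.15 ± 0.10 and 0.57 ± 0.07. Nedd4l, a ubiquitin ligase, Hipk2, a kinase, and Pmepa1, an inhibitor of TGF-beta signals, were lower in Sirt6-/- MEFs, with log2 fold changes of -1.64 ± 0.07, -1.09 ± 0.09 and -1.08 ± 0.09.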

How the data were processed

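RNA-Seq was measured in 9 samples, 3 per genotype. The deposited files give raw read counts per gene and RPKM for 24341 genes in each sample, as the authors made them, on genome build mm10 per the labels. The aligner, the counter and the use of strand are not given in the sources used here. RPKM values served to compare levels between genes and to give family shares, family sums and counts of genes at 1 RPKM by genotype. They are scaled to library totals without TMM. The TMM factors over all 9 samples were 0.942 to 0.948 in WT, 1.051 to 1.054 in Atm-/- and 1.003 to 1.009 in Sirt6-/- MEFs. The part of this scaling in RPKM differences between genotypes was not tested.

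Counts were analysed with edgeR 4.0.16 in R 4.3.3. For each of 3 genotype pairs, genes were filtered with filterByExpr, scaled with TMM and tested with the quasi-likelihood test (glmQLFit and glmQLFTest), with Benjamini-Hochberg adjustment over all tested genes and a threshold of 0.05. Standard errors are the log2 fold change divided by the square root of F. The scripts were tested on simulated data. Levels by sample are CPM after TMM over all 9 samples. All 66 genes matched GENCODE M21 and RefSeq GRCm38.p6 by symbol.

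Alternatives were DESeq2 1.42.0 (size factors and Wald test), library totals, 2 other low-count filters, 1 fit to all samples, a replicate block, leaving out each sample and a fold change of at least 2. Genes were named as the 8 largest rises and 8 largest falls per comparison among those past the threshold, without overlap between groups and with a mean of at least 1 CPM in a group, with all receptors and Smads, all low genes, and, per pathway list, the 3 largest rises and falls by the same criteria. The remaining tested members were then added, except 1 that is counted among the members but not reported here. The members and lists were chosen with earlier results of these data known.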

Additional observations from a re-analysis of the deposited data

How the results depend on the processing

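The direction of the named signalling genes and their side of the threshold held under most alternatives. The sign turned with library totals in Atm-/- against WT MEFs for Smad2, at 0.016 (adjusted p = 0.813), and Tgfb1i1, at 0.16 (adjusted p = 0.0156). That setting moves the median of all genes by 0.16, and 6156 genes are then higher and 3326 lower, in place of 4611 and 4469. Leaving out 1 sample also turned the sign of small log2 fold changes that did not pass with all samples. Examples in Atm-/- against WT were Ltbp3 (-0.025 to 0.12) and Tgfb1i1 (-0.034 to 0.040). Examples in Sirt6-/- against WT were Smad9 (-0.14 to 0.21) and Tgfb3 (-0.12 to 0.019). At a change of at least 2-fold, 20 signalling genes passed in Atm-/- against WT (10 higher, 10 lower), 23 in Sirt6-/- against WT (13 and 10) and 16 in Atm-/- against Sirt6-/- (8 and 8), and of the pathway lists 30 (14 and 16) and 38 (22 and 16) genes against WT, since this rule takes fewer genes by construction. Leaving out 1 sample gave 38 to 43 signalling genes in Atm-/- against WT (15 to 20 higher, 23 to 24 lower), 39 to 40 in Sirt6-/- against WT (20 higher, 19 to 20 lower) and 35 to 37 in Atm-/- against Sirt6-/- (17 to 19 in each direction), and 59 to 65 (25 to 32 higher, 33 to 35 lower) and 63 to 70 (32 to 34 and 30 to 36) pathway genes. With a replicate block the counts were 39, 40 and 35 signalling genes and 62 and 69 pathway genes. Same-numbered samples did not deviate together (r from -0.0163 to 0.0632), which gave no sign that the numbers pair the samples. With so few samples, these values cannot exclude a shared preparation. BMP target genes higher in Atm-/- MEFs numbered 8 with library totals, 9 without WT replicate 2 and 3 with at least 10 counts in every sample, and the cause was not tested. The set of genes tested can differ between these settings, because the low-count filter is applied in each fit. Calls lost under some settings were those of Acvr1b, Bmp1, Smad2, Smad4, Tgfbr1 and Tgfbr3l in Atm-/- against WT, Acvr1 in Sirt6-/- against WT, and Acvr1b, Acvr2b, Chrdl1 and Tgfbr3l in Atm-/- against Sirt6-/-. In that comparison without Atm-/- replicate 1, the adjusted p was 0.0580 for Acvr1b, 0.168 for Acvr2b, 0.0888 for Chrdl1 and 0.120 for Tgfbr3l. Genes with few reads, such as Bmp8a, Acvr2b, Tgfbr3l and the 19 untested genes, are limited by depth. Bmp8a passed in Atm-/- against WT only without Atm-/- replicate 1 (log2 fold change -2.20, adjusted p = 0.0433).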
